A study of Mus musculus with 12 samples.

Results

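Broad termination domains are stretches of chromosome where replication forks arriving from the left meet forks arriving from the right. They were chosen by EpiLC OK-seq reads: at each point of a 50 kb grid on the 19 autosomes with 500 or more summed EpiLC reads on each side, the Crick percent of the 100 kb to the left was taken from that of the 100 kb to the right. This difference is called the step here and is given in percentage points. Points with a step of -10 or less that were the lowest within 200 kb were kept. The rule gave 2472 domains out of 46686 grid points with enough reads and out of 5090 local minima, and the windows of the domains covered 20.1% of the autosomal bins.

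OK-seq sequences Okazaki fragments, the short pieces in which the lagging strand is made, labelled with EdU. All cells were mouse embryonic stem cells (ESCs), either naive, kept in LIF and 2i, or formative epiblast-like cells (EpiLCs), obtained by withdrawing LIF and 2i. Control cells were KMT2C KO and came from a line with a conditional KMT2D allele and CreER, of mixed C57BL/6 and 129 background and undetermined sex. The labels call the groups control KO, double KO (dKO) and double catalytic dead (dCD), and the EpiLCs formative ESC. OK-seq measures no expression, so cell states and genotypes could not be checked by marker genes. dKO cells were the same line after KMT2D was deleted with 4-hydroxytamoxifen. dCD cells, in which KMT2C and KMT2D lack catalytic activity, came from the male R1 line of 129 background, so that genotype and line cannot be told apart in any comparison with dCD. KMT2C was thus deleted or catalytically dead in every group, and no wild-type sample was used here. The 12 samples form 6 conditions of 2 replicates, and each condition was deposited as 1 file with its replicates summed. Differences between conditions therefore have no replicate error, and the 95% intervals given below cover counting error only. Autosomal reads per file ranged from 3559511 to 4292393 in naive cells and from 11087588 to 13223312 in EpiLCs.

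When a fork moves to the right its Okazaki fragments are read as Crick, and when it moves to the left they are read as Watson. Forks start in pairs at origins and run apart until each meets a fork from a neighbouring origin. An initiation region therefore shows a rise of Crick percent from left to right, and a region of termination shows a fall. In mammalian cells termination is not tied to fixed sites but spread over wide zones between origins, and it often falls inside long genes whose ends lie near initiation regions. The strand asymmetry of the reads also follows base content in these libraries: 1 kb bins with more T than A on the plus strand gave a higher share of Crick reads, with a slope of 1.21 to 1.42 in EpiLC files and 1.72 to 1.84 in naive files. Each main result is therefore given as counted and again after that part of the reads was taken off.

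The centres of the 4 domains with the lowest EpiLC step are shown because the share of Crick reads followed T minus A content in these libraries. Each line is the mm10 plus strand, 5′ to 3′, with every T in capitals.
Domain nearest Gm10715, chr9:3049951-3050050: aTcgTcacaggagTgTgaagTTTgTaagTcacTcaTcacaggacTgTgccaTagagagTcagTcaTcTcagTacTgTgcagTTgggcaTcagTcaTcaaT
Domain nearest Eln, chr5:134799951-134800050: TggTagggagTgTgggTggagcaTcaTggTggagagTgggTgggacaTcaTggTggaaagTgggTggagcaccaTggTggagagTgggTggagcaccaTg
Domain nearest Gm21738, chr14:19399951-19400050: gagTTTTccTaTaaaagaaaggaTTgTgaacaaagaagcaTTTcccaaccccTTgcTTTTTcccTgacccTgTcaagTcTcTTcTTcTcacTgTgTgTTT
Domain nearest Ceacam1, chr7:25499951-25500050: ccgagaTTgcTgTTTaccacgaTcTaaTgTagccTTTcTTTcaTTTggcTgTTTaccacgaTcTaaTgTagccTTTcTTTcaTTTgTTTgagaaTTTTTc
The central 100 bases held 27 T and 27 A at the first, 20 T and 21 A at the second, 35 T and 24 A at the third, and 44 T and 19 A at the fourth. Over the full windows T minus A was 21.7% of bases left of the Gm10715 point and -2.86% right of it. At the Eln point T minus A was 3.30% left and -4.08% right.

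In the EpiLC files that chose them, the domains had steps from -43.8 to -10.003 with a median of -13.5, given as a description. With reads summed over domains, the step was -13.9 in control, -15.02 in dKO and -16.1 in dCD. A value from a library outside its own call came from calling the domains without 1 EpiLC library and measuring them in it. The control library then showed -12.2 (-12.4 to -12.1) at 2688 points, the dKO library -13.4 (-13.5 to -13.3) at 2552 points and the dCD library -14.6 (-14.7 to -14.5) at 2455 points. The left-out library had a step below 0 at 98.7%, 99.1% and 99.4% of the points, respectively. Over all grid points the shares in these libraries were 53.8%, 53.8% and 55.1%.

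The 3 naive libraries were not used in the choice, and Crick percent fell at the same places in them. The Crick percent of the summed naive reads fell from 58.6% left of the points to 41.3% right of them, a step of -17.3 (-17.4 to -17.2). It was -16.5 (-16.7 to -16.3) in naive control, -16.3 (-16.5 to -16.1) in naive dKO and -19.3 (-19.6 to -19.1) in naive dCD. Over all grid points the naive step was -0.0183, which is near 0 by construction, since overlapping windows count almost every read on both sides. Sums give more weight to domains with many reads, and the mean over single domains was -16.2. The median domain had a naive step of -15.9, and the quartiles were -20.6 and -11.2.

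**Figure D1:**
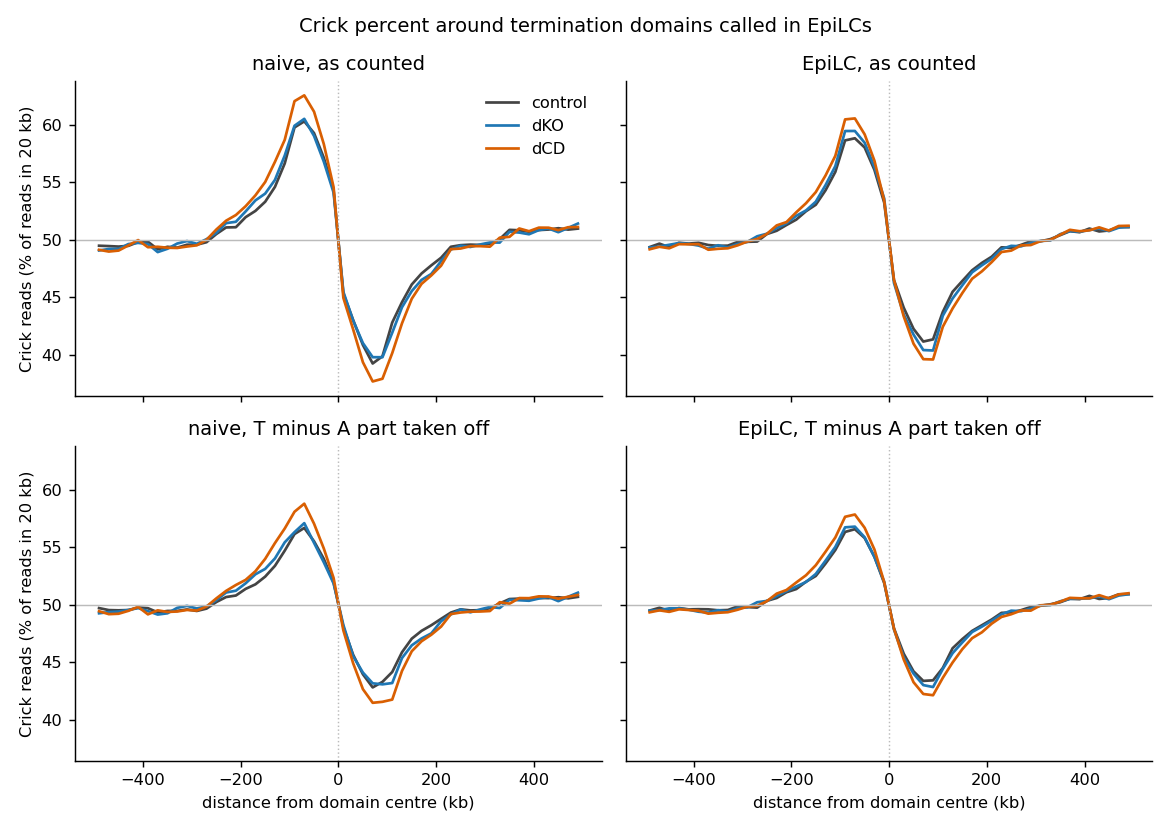
Crick percent (y axis, % of reads in 20 kb) against distance from the domain centre (x axis, kb) with reads summed over 2472 termination domains, for naive (left) and EpiLC (right) libraries as counted (top) and after removal of the T minus A part (bottom). Lines are control, dKO and dCD; all 6 fall through the centre, naive control from 60.3% at -70 kb to 39.3% at 70 kb, and the EpiLC panels show the files that chose the domains.

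Most domains were found in naive reads one by one. The 95% interval of the naive step lay below 0 at 2311 of 2472 domains (93.5%), against 29.1% of all grid points. It lay above 0 at 3 domains (0.121%), against 25% of grid points, and included 0 at 158. A naive step of -10 or less was seen at 2006 domains (81.1%), against 16.9%. All 3 naive libraries had a step below 0 at 2292 domains (92.7%), against 34%. At the 2618 EpiLC local minima whose step was above -10, the naive interval lay below 0 at 1510 (57.7%). Naive reads numbered a median of 518 left and 515 right of a domain, and the median width of a single domain's interval was 11.7 points, so a domain with a shallow naive step could not be told from 0 at this depth.

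Base content moved with these values. T minus A averaged 1.54% of bases left of the domains and -1.45% right of them, and it fell from left to right at 91.8% of domains, against 51.5% of grid points. After removal of the T minus A part, the naive step at the domains was -10.9 (-11.0 to -10.7), and it was -10.1 in control, -10.04 in dKO and -12.6 in dCD. The interval then lay below 0 at 1733 domains (70.1%), against 20.9% of grid points. When it was taken off before calling as well, the rule gave 1357 domains, of which 92.9% lay within 100 kb of one called as counted, and their naive step was -13.9 (-14.05 to -13.7). No share of grid points was computed beside the 92.9%. Seen from the other side, 1261 of the 2472 domains (51.0%) lay within 100 kb of one called that way, as did 14.5% of grid points. Those 1261 had a naive step of -19.0 as counted and -14.0 without the T minus A part, and the other 1211 had -15.3 and -7.09. The part of base content in the steps was not tested further.

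**Figure D2:**
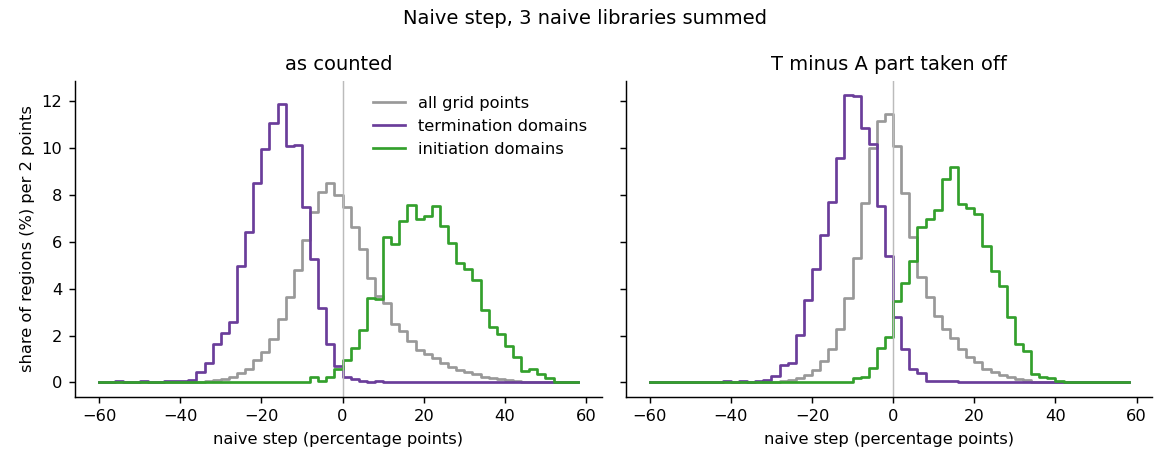
Share of regions (y axis, % per 2 points) by naive step (x axis, percentage points, 3 naive libraries summed) at termination domains, initiation domains and all grid points, as counted (left) and after removal of the T minus A part (right). Termination domains lie mostly below 0 in both panels, with medians of -15.9 and -9.64, and initiation domains mostly above 0.

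The values by T minus A are given as a description, since the part removed grows with the change that sorts the domains. In the quartile of domains with the largest fall of T minus A, a mean change of -6.35% of bases, the naive step was -20.3 as counted and -7.77 without the T minus A part. In the quartile with the smallest fall or a rise, a mean change of -0.217%, it was -15.3 and -12.9. The interval lay below 0 at 89.97% of the latter domains as counted and at 81.4% without the T minus A part. Across the 2472 domains the EpiLC and naive steps had a Pearson r of 0.624 and a Spearman rho of 0.572, and 0.650 and 0.631 without the T minus A part. These points share genome sequence, cell lines and the choice in EpiLCs, so the values are descriptions.

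The position was mostly shared between states. The lowest naive step within 200 kb was at the same grid point for 1446 domains (58.5%) and within 50 kb for 2042 (82.6%), while for all grid points these shares were 10.9% and 32.7%. After the same removal of T minus A they were 42.0% and 70.6% for the domains, against 10.8% and 32.6% of grid points. The same rule applied to the summed naive files, with 200 reads on each side, gave 3771 points. Of the 2472 EpiLC domains, 2011 (81.4%) lay within 100 kb of one of them, against 40.2% of grid points, and 53.3% of the naive points had an EpiLC domain within that distance. No share of grid points near an EpiLC domain was computed beside the 53.3%.

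Domains with deeper EpiLC steps had deeper naive steps as counted. At the 1587 domains with an EpiLC step between -15 and -10 the mean of single naive steps was -13.6, at the 649 between -20 and -15 it was -19.0, at the 193 between -25 and -20 it was -24.8, and at the 43 below -25 it was -30.7. After the same removal these means were -8.06, -12.2, -17.1 and -18.5. With reads summed, the order broke at the deep end after removal: the naive step was -8.87, -12.8 and -18.2 in the first 3 classes and -13.4 (-14.2 to -12.5) in the class below -25, which holds the Gm10715 domain described below.

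The mutants were compared with control in naive cells, whose reads were not used in the choice, although EpiLC libraries of the same 3 genotypes were. The naive dKO step differed from control by 0.27 points (-0.02 to 0.56), an interval that includes 0. The call depended on the setting: the difference was 0.48 (0.07 to 0.90) with 50 kb on each side, 0.42 (0.12 to 0.71) with EpiLC dCD left out of the call and -0.58 (-0.78 to -0.37) with 200 kb on each side. The naive dCD step was lower than control by -2.81 (-3.11 to -2.51), that is, 1.17 times as large. With EpiLC dCD left out of the call it was -2.33 (-2.63 to -2.03). At single domains the dKO minus control interval lay below 0 at 99 (4.005%, against 4.19% of grid points) and above 0 at 108 (4.37%, against 4.11%), shares near the background. The dCD minus control interval lay below 0 at 212 domains (8.58%, against 5.15% of grid points) and above 0 at 66 (2.67%, against 5.59%).

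The dCD libraries had a larger contrast over the autosomes as a whole. The amplitude of fork polarity, taken as the SD of Crick percent over 50 kb bins of all autosomes after counting variance was removed, was 12.6 points in naive control, 13.3 in dKO and 16.5 in dCD. Relative to control it was 1.31 times as large in naive dCD, more than the 1.17 times of the domains. With each step divided by the relative amplitude, dCD minus control turned to 1.76 (1.5004 to 2.02) and dKO minus control to 1.07 (0.790 to 1.36), both less deep than control. With the T minus A part off as well they were 1.23 and 0.951. The direction of dCD at termination domains thus depended on the scale.

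Initiation domains, called from the same EpiLC reads by the mirror rule (10 or more and the highest within 200 kb), numbered 2806. Their naive steps were 20.7 in control, 20.6 in dKO and 25.03 in dCD. The dCD step was 1.21 times that of control there, with a difference of 4.32 (4.06 to 4.58), and dKO minus control was -0.09 (-0.35 to 0.17). Divided by the relative amplitude these turned to -1.59 (-1.82 to -1.36) and moved to -1.11 (-1.36 to -0.86), so the scale mattered at initiation domains too. In naive control the size of the step was 1.31 times the amplitude at termination domains and 1.64 times at initiation domains. The sets shared a threshold but were not matched: their median EpiLC steps were -13.5 and 17.2.

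**Figure D3:**
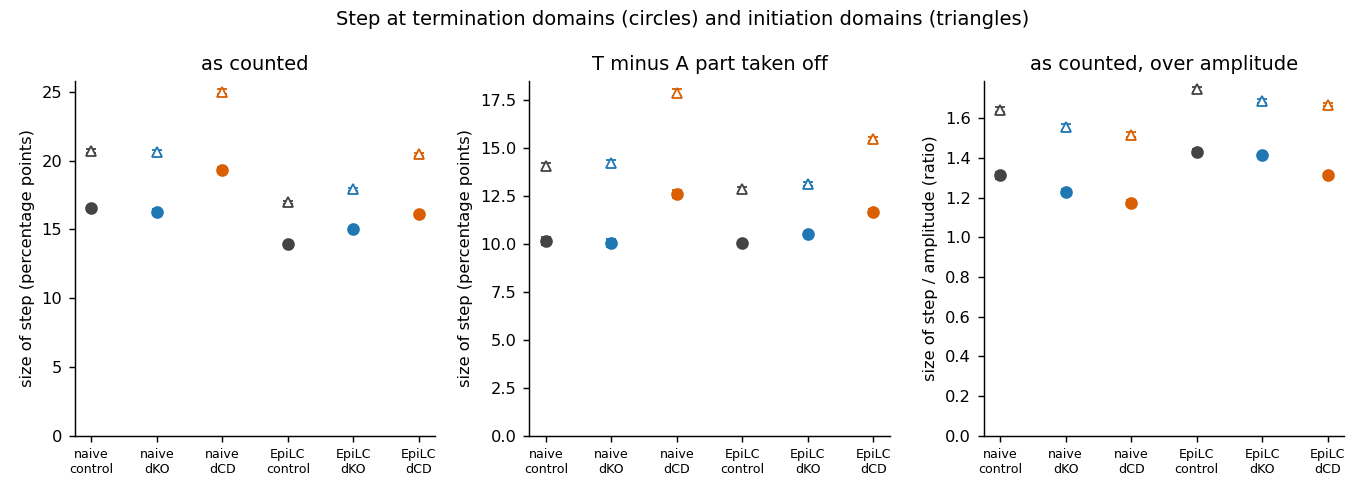
Size of the step (y axis, percentage points, or as a ratio to the amplitude of fork polarity in the right panel) in each of the 6 libraries (x axis) at termination domains (circles) and initiation domains (triangles); bars are 95% counting intervals, mostly smaller than the symbols. Termination steps are smaller than initiation steps in every library, and dCD is largest within each state in the left and middle panels but smallest in the right panel. The EpiLC libraries chose both sets, so their values are a description.

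The direction of the state difference depended on the scale. At the points called without the library measured, the EpiLC minus naive step was 3.49 (3.26 to 3.72) in control, 2.01 (1.77 to 2.24) in dKO and 4.14 (3.89 to 4.38) in dCD, the naive step being the deeper in each. Without the T minus A part the EpiLC and naive steps were -8.55 and -9.63 in control, -9.14 and -9.50 in dKO, and -10.3 and -12.1 in dCD. The naive step was still the deeper in each. Divided by amplitude, EpiLC minus naive was -0.0979 (-0.117 to -0.0788) in dKO and -0.0556 (-0.0719 to -0.0393) in dCD, the EpiLC step being the deeper, and -0.0117 (-0.0314 to 0.00797) in control, which includes 0. The points were still called in the other EpiLC libraries and not in naive ones, so the choice was not neutral between states.

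Distances to initiation domains, called from the same EpiLC reads, are a description. The median distance between successive termination domains was 650 kb (quartiles 450 and 1100). The nearest initiation domain was a median of 300 kb to the left and 300 kb to the right, and 1306 domains (52.8%) had one within 500 kb on both sides. For all grid points the medians were 500 kb on each side and the share was 29.1%, and most grid points too (46221 of 46686) had an initiation domain on both sides. Where the flanking initiation domains were at most 500 kb apart (750 domains) the naive step was -18.3 (-18.6 to -18.1), at 500 to 1000 kb (959 domains) -17.4 (-17.6 to -17.2), and at 1000 to 2000 kb (597 domains) -14.8 (-15.1 to -14.6). The 146 domains in wider gaps had -16.1 as counted, but -7.50 without the T minus A part, against -12.8, -11.3 and -8.08 for the narrower classes in that order. With each domain counted once the widest class was the shallowest as counted too, at a mean of -13.5 against -14.0 in the 1000 to 2000 kb class. The spacing of these classes was set by EpiLC reads.

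Most domains lay inside genes. Of 2472 domains, 1394 (56.4%) were inside a protein-coding gene, compared with 41.9% of grid points and 37.5% of initiation domains. Genes of 100 kb or more held 1061 domains (42.9%), compared with 25.3% of grid points and 10.1% of initiation domains. The median length of the gene around a domain was 170.8 kb, and 144.7 kb for grid points in genes. A transcription start site (TSS) of a protein-coding gene lay within 50 kb of 28.9% of domains, 41.6% of grid points and 83.5% of initiation domains. With all annotated genes these shares were 67.4%, 72.4% and 93.2%, so domains and grid points lay closer together. Among domains also called without the T minus A part, 66.9% were inside a gene and 53.5% inside one of 100 kb or more, and among the others 45.5% and 31.9%. These are shares of regions, given without a test.

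Within genes of 100 kb or more the domains were rarer near the start than grid points were. Counted from the TSS, 131 of 1061 (12.3%) lay in the first tercile of the gene, 604 (56.9%) in the middle and 326 (30.7%) in the last, where grid points in such genes split into 33.3%, 33.3% and 33.5%. For the 675 also called without the T minus A part the shares were 12.9%, 66.7% and 20.4%. Of protein-coding genes between 300 and 500 kb, 203 of 323 (62.8%) had a domain inside (1406 of 20807, or 6.76%, over all lengths). Longer genes hold more grid points, and no share for genes of matched length was computed. Shares were lower in shorter and longer genes, with 750 of 1831 (41.0%) between 100 and 300 kb, 101 of 218 (46.3%) at 500 kb or more, 293 of 7306 (4.01%) between 20 and 100 kb and 59 of 11129 (0.530%) under 20 kb.

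Annotated genes pointed toward the domains more than away from them. Plus-strand genes covered 31.1% of the 100 kb to the left and 23.2% of the 100 kb to the right, and minus-strand genes covered 21.9% and 29.5%. Around initiation domains the order was turned, with plus-strand genes over 19.3% of the left and 33.7% of the right side. More bases thus lay in genes read toward the domain than in genes read away from it, on both sides. The nearest protein-coding genes were convergent at 590 domains (23.9%, against 21.1% of grid points) and divergent at 582 (23.5%, against 26.3%). With all annotated genes in place of protein-coding ones the contrast was smaller, at 24.8% against 24.5% convergent and 21.5% against 22.8% divergent. GC content of the 200 kb was a median of 42.6%, near the 41.5% of grid points and 43.4% of initiation domains. Naive reads per kb were a median of 5.185, against 4.91 for grid points, and EpiLC reads 16.7 against 15.7.

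**Figure D4:**
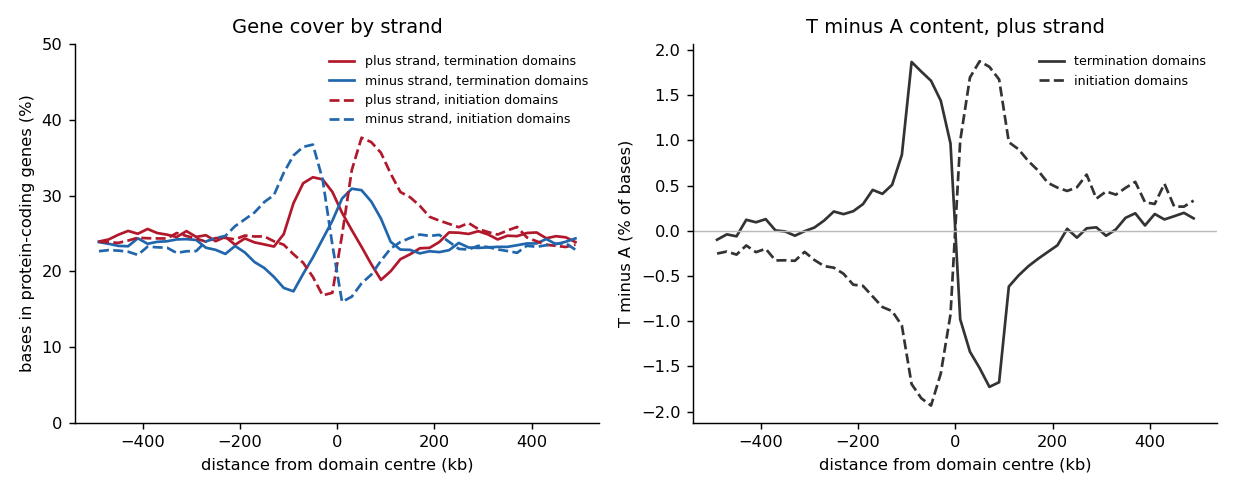
Left, share of bases in protein-coding genes (y axis, %) on the plus and minus strand against distance from the domain centre (x axis, kb); right, T minus A content of the plus strand (y axis, % of bases). Solid lines are termination domains and dashed lines initiation domains; T minus A at termination domains falls from 1.87% at -90 kb to -1.73% at 70 kb, and rises at initiation domains.

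T minus A changed at the edge of the calling window. It averaged 0.839% in the 20 kb just outside the left window, 1.87% in the 20 kb just inside it, -1.67% just inside the right edge and -0.617% just outside. The windows are part of the rule, and the part of the choice in this break was not tested.

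The naive step varied with gene context. It was -19.3 (-19.5 to -19.1) at the 714 domains with a TSS within 50 kb, -17.3 (-17.5 to -17.1) at the 1272 with one at 50 to 200 kb and -13.5 (-13.8 to -13.2) at the 486 farther away. Without the T minus A part these were -12.1, -11.3 and -6.81. By GC content of the 200 kb the naive step was -15.7 (-15.9 to -15.5) in the lowest tercile, -17.5 (-17.7 to -17.3) in the middle and -18.2 (-18.42 to -18.03) in the highest, and without the T minus A part -7.75, -10.6 and -13.2. Inside genes of 100 kb or more it was -17.2 (-17.4 to -17.0), in shorter genes -17.1 (-17.4 to -16.8) and outside genes -17.5 (-17.7 to -17.3). That last order turned when each domain counted once, with means of -16.5, -16.5 and -15.8. Convergent and divergent neighbours differed by -0.19 (-0.54 to 0.17), and by 1.22 (0.86 to 1.57) without the T minus A part.

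**Figure D5:**
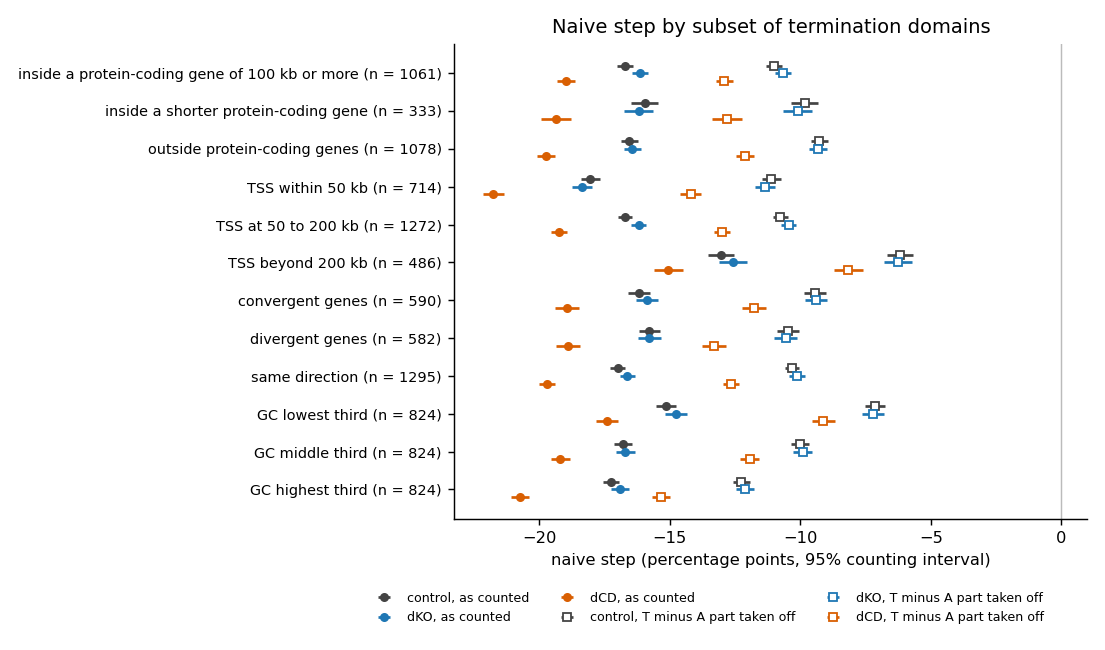
Naive step (x axis, percentage points, bars are 95% counting intervals) by subset of termination domains (y axis, with the number of domains), in control, dKO and dCD, as counted (filled circles) and after removal of the T minus A part (open squares). Domains far from a TSS and domains of low GC have the shallowest steps in all 3 libraries; those with a TSS beyond 200 kb have -13.5 with the libraries summed.

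The dCD minus control difference was below 0 in each subset, from -3.72 (-4.25 to -3.19) where a TSS lay within 50 kb to -2.01 (-2.75 to -1.27) where none lay within 200 kb. It was -3.48 (-3.94 to -3.01) in the highest GC tercile and -2.25 (-2.83 to -1.67) in the lowest. dKO minus control was 0.58 (0.14 to 1.01) inside genes of 100 kb or more, and 0.36 (-0.08 to 0.79) there without the T minus A part. With a TSS at 50 to 200 kb it was 0.52 (0.12 to 0.92) as counted and 0.32 (-0.09 to 0.72) without that part. In the other 10 subsets the dKO interval included 0, with values of either sign, such as -0.31 (-0.84 to 0.21) with a TSS within 50 kb and -0.23 (-0.99 to 0.52) in shorter genes.

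The domains were spread over all autosomes. Domains per Mb ran from 0.689 on chromosome 14 to 1.19 on chromosome 17, and the number from 62 on chromosome 19 to 207 on chromosome 2. The naive step was lowest on chromosome 9 (-22.0) and highest on chromosome 18 (-14.7). These are sums of reads, and chromosome 9 holds the Gm10715 and Rpusd4 domains described below, whose reads lie partly in bins of very high count. After removal of the T minus A part the range was -12.1 on chromosome 11 to -8.96 on chromosome 18.

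Single domains with the lowest EpiLC steps show what the numbers rest on. The domain at chr9:2950001-3150000, nearest Gm10715, had EpiLC steps of -40.7 in control, -43.3 in dKO and -47.8 in dCD, and naive steps of -46.2, -62.0 and -57.5. Its left window held 6406 naive reads and its right window 269, and 16 of its bins exceeded 10 times the median count. Its naive step was -54.9 as counted, -54.2 without those bins and -0.564 without the T minus A part. The domain at chr14:19300001-19500000, nearest Gm21738, had naive steps of -38.3, -37.3 and -41.4. Without its 5 bins of very high count the EpiLC step was -8.68 in place of -35.4, and the naive step -5.72 in place of -39.0. After removal of the T minus A part its naive step was 10.2. In all, 11 domains held bins over 10 times the median, and 7 of them had an EpiLC step above -10 without those bins.

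The other 8 of the 10 lowest EpiLC steps held no such bin, and the naive interval lay below 0 at all 10. The domain at chr5:134700001-134900000 lay 52.7 kb from the TSS of Eln, the gene of elastin, and had naive steps of -31.9 in control, -40.2 in dKO and -51.6 in dCD. The domain at chr7:25400001-25600000, near the cell adhesion gene Ceacam1, had -35.4, -32.0 and -23.1. On chromosome 17 a pair of domains lay in the major histocompatibility region. The domain at chr17:34650001-34850000, 6.12 kb from the TSS of the complement gene C4b, had naive steps of -36.6, -35.6 and -39.5. The domain at chr17:35300001-35500000, 20.4 kb from the TSS of the class I gene H2-Q4, had -41.2, -44.7 and -46.5, so that all 3 naive libraries were low at both. Without the T minus A part the summed naive step was -27.0 in place of -41.0 at Eln, -19.4 in place of -30.5 at Ceacam1, -33.1 in place of -37.3 at C4b and -40.1 in place of -43.8 at H2-Q4.

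The remaining members of that group had naive steps of -36.0 (chr15:103550001-103750000, nearest Glycam1), -25.4 (chr8:3850001-4050000), -31.8 (chr2:25000001-25200000, nearest Noxa1) and -29.4 (chr6:94500001-94700000). After removal of the T minus A part these were -22.3, -11.7, -24.3 and -10.4, in that order. The chromosome 8 point lay inside Cd209c (ENSMUSG00000040165, chr8:3940222-3954746), a C-type lectin gene. The chromosome 6 point lay inside Slc25a26 (ENSMUSG00000045100, chr6:94500331-94604672), which encodes a mitochondrial carrier of S-adenosylmethionine. By naive step the 5 lowest of the 2454 domains with 200 or more naive reads on each side were those near Gm10715, H2-Q4 and Eln, one nearest Rpusd4 (chr9:35200001-35400000, -48.1) and one nearest Esp38 (chr17:39750001-39950000, -42.1). The Rpusd4 and Esp38 domains rested on 1 and 6 bins of very high count, without which their naive steps were 2.07 and 0.285.

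At the other end, 5 domains had the highest naive steps, all above 0. The domain at chr3:30600001-30800000, nearest Lrrc31, had EpiLC steps of -15.5, -13.0 and -19.7 in control, dKO and dCD, and naive steps of 9.54, 7.04 and 10.9. The rule and the choice of the highest naive step fix this separation of the states. Its summed naive step was 9.20 (3.70 to 14.6). The domain at chr11:10000001-10200000, with its nearest TSS that of Abca13 at 908 kb, had 8.24 (1.27 to 15.1), but its naive dCD library was at -10.7. The domain at chr2:68250001-68450000, inside the kinase gene Stk39, had 5.997 (0.300 to 11.7). The domains inside Frmd4a and nearest Ripk2, whose TSS lay 786 kb away, had 4.23 (-1.50 to 9.89) and 3.69 (-3.51 to 10.8), which include 0. The naive control library was at -1.88 in the Frmd4a domain and the naive dCD library at -8.53 in the Ripk2 domain. All 5 were named for these values, and without the T minus A part they ran from 5.38 to 14.5.

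Near the threshold, the 3 domains just inside -10 had EpiLC steps of -10.003, -10.005 and -10.008, and naive steps of -18.9 (nearest Spef2), -16.6 (nearest Nxph1) and -13.8 (nearest Wnt5a), or -9.49, -6.70 and -7.26 without the T minus A part. The TSSs of these genes lay 201, 852 and 145 kb away, in that order. The 3 local minima just outside had EpiLC steps of -9.998, -9.996 and -9.996, and naive steps of -7.50 (nearest Ptprr), -16.3 (inside Tbc1d22a) and -9.27 (nearest Gcnt1).

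Gene lists were set beside the domains. Of 25 giant and fragile-site genes, known for common breaks under replication stress, 11 (44.0%) had a domain on or within 100 kb of the gene body, all of them with the domain inside. The share over autosomal protein-coding genes was 24.5%, and over those of 500 kb or more, the nearer match in length, it was 48.6%. The 11 genes held 13 domains, with a median naive step of -8.15, and the naive interval lay below 0 at 9 of them. Over all domains the median was -15.9 and the share 93.5%. Without the T minus A part the 13 steps ran from -14.9 at Dpp6 to -0.238 at Naaladl2, which had -13.9 as counted. Lrp1b then had -2.75 in place of -12.6, and Ctnna2 -2.42 in place of -7.97. Cdh13, a cadherin gene, had a naive step of -16.8 (-22.3 to -11.1), and Dpp6, which encodes a potassium channel subunit, had -16.8 (-22.7 to -10.7) and -12.7 (-18.7 to -6.59) at its pair of domains. The interval included 0 at Wwox (-4.04, -10.1 to 2.03), Ptprd (-3.97, -10.8 to 2.92), Nrxn3 (-1.26, -7.83 to 5.32) and the domain in the distal part of Dlg2 (-6.44, -13.1 to 0.340).

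Of 13 naive pluripotency factors found on autosomes, 2 (15.4%) had a domain within 100 kb, against 24.5% of autosomal protein-coding genes. The number with a domain inside the gene was 0, against 6.76% of those genes. At the domain near Esrrb, an orphan nuclear receptor of the naive network, naive steps were -4.67 in control, -18.4 in dKO and -34.4 in dCD, which lie far apart, and -18.6 (-23.8 to -13.3) summed. Near Klf2 the naive step was -2.16 (-7.30 to 2.997), and the direction turned to 5.21 without the T minus A part, while the Esrrb domain had -11.2. Of 14 formative factors found, 4 (28.6%) had one within 100 kb, against the same 24.5%. Only Lin28b had it inside the gene, 1 of 14 (7.14%), against the same 6.76%. At the domain near Dnmt3l, which stimulates de novo DNA methylation, naive steps were -26.2, -21.4 and -30.9, with -26.4 (-31.6 to -21.1) summed. Near Dnmt3a, a de novo DNA methyltransferase, they were -18.2, -16.3 and -32.7. The domain near Etv4, an ETS factor, had -20.5 (-25.7 to -15.1). The domain inside Lin28b, which encodes an RNA-binding protein, had -7.95 (-13.9 to -1.91). Without the T minus A part the summed naive steps were -16.3 near Dnmt3l, -19.3 near Dnmt3a in place of -22.0, -13.8 near Etv4 and -4.87 inside Lin28b. As counted, the naive interval lay below 0 at all 4 of these domains, where 93.5% of all domains had the same.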

How the data were processed

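OK-seq reads were aligned by the authors to mm10 with bowtie2 and counted by strand in 1 kb bins. The submitters' processing notes also name FastQC, Trim Galore and Picard, with no versions, and removal of duplicates is not given in the sources used here. The deposited values are Watson and Crick reads per base, a read density signal that gives whole reads when multiplied by 1000 (deviation at most 2.27e-13), with replicates summed per condition. Positions mark bin ends: with that reading the 74135 bins of unknown sequence held 0 reads, and 3045 with the other.

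Reads were summed in windows with numpy (version 2.4.6) and pandas (version 2.3.3) under Python 3.11.15, and figures drawn with matplotlib (version 3.10.9). Crick percents carry Wilson intervals, steps Newcombe intervals and differences of steps square-and-add intervals, at 95%. Without replicate files no test between conditions was made. The T minus A slope was fitted per library on 1 kb bins against bins up to 10 away on each side, the nearest 2 left out, and its part taken off the reads. Genes came from GENCODE M21. Scripts were tested on simulated data with known steps. Named regions were the 10 lowest EpiLC steps, the 5 lowest and 5 highest naive steps, 3 on each side of the threshold, and list genes. The members and lists were chosen with earlier results of these data known. Alternatives were the window width, threshold, read minimum, library left out of the call, T minus A, amplitude, high bins and averaging.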

Additional observations from a re-analysis of the deposited data

Results flagged for a closer look

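At 3065 points called by the same rule in the EpiLC dCD library alone, with 250 reads on each side, the dKO minus control step differed between states by 1.10 (0.79 to 1.41), naive minus EpiLC. The naive difference was 0.21 (-0.05 to 0.48) and the EpiLC difference -0.89 (-1.04 to -0.73). Without the T minus A part the difference between states was 0.449 (0.140 to 0.758), and with steps divided by relative amplitude 0.739 (0.440 to 1.04). On that last scale the naive difference was 0.904 (0.645 to 1.16), and the EpiLC difference turned to 0.165 (0.0152 to 0.314).

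At 2969 points called in the EpiLC dKO library alone, the dCD minus control step differed between states by -0.678 (-0.993 to -0.362), from -2.53 in naive cells and -1.86 in EpiLCs, and by -0.828 without the T minus A part. Divided by relative amplitude, all 3 values turned sign, to 0.666 (0.386 to 0.946) from 1.55 in naive cells and 0.882 in EpiLCs. The values by amplitude were chosen after seeing the data. Both intervals cover counting error only, and no test over replicates was possible.

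Chromosome X was not used in the report. The same rule gave 145 points there of 2323 with enough reads. Their naive step was -16.2 (-17.0 to -15.4), and -8.98 without the T minus A part. Over all its grid points the step was 0.317, a value near 0 by construction. The control and dKO line is of undetermined sex and the dCD line is male.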

How the results depend on the processing

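No paired analysis was possible because the processed files used here hold the replicates of each condition summed, and reads were not analysed here. The number of domains was 1357 with the T minus A part off before calling, 885 at a threshold of -15 and 236 at -20. The naive step stayed below 0 in each of 14 alternatives: -13.4 with 200 kb on each side, -13.3 with 50 kb, -16.6, -17.0 and -16.4 with EpiLC control, dCD or dKO left out of the call, -10.9 with the T minus A part off and -13.9 with it off before calling, -16.8 without bins above 10 times the median, -17.8 without chromosomes 2, 3, 4, 6 and 18, -16.2 as a mean of single domains, -22.4 and -29.6 at thresholds of -15 and -20, and -16.9 with 1000 reads. The naive dCD minus control step was -1.70 with 50 kb, -2.33 with EpiLC dCD left out, -2.45 with the T minus A part off, -3.33 with it off before calling, -2.46 as a mean of single domains, -3.67 and -4.53 at -15 and -20, and turned to 1.76 divided by amplitude and 1.23 with the T minus A part off too. The naive dKO minus control step was -0.58 (-0.78 to -0.37) with 200 kb, -0.26 with the T minus A part off before calling, 1.07 divided by amplitude and 0.95 with both. The next values come from alternatives chosen after seeing the data, as does the joint T minus A and amplitude value above. The highest minus lowest GC tercile was -2.54 as reported and -5.42 with the T minus A part off. Farthest minus nearest TSS was 5.78 as reported, 5.33 with the T minus A part off, 4.53 without high bins and 4.70 as a mean of single domains. Convergent minus divergent was -0.19 as reported and 1.22 (0.86 to 1.57) with the T minus A part off. Long genes minus outside genes was 0.27 as reported and turned to -1.32, -0.87 and -0.72 with the T minus A part off, without high bins and as a mean of single domains. Beyond what these alternatives change by construction, the cause was not tested. The share of domains with a naive interval below 0, 93.5% as reported, was 65.5% with 50 kb, 70.1% with the T minus A part off, 81.1% with 200 kb and 100% at -20, and between 89.5% and 98.9% in the other 9 alternatives. Naive depth, a median of 518 and 515 reads per side, limits single domains to intervals 11.7 points wide.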
